A study of Mus musculus with 12 samples.

Results

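The genes described here are 10 transcription factor genes of the mouse oocyte: Nobox, Figla, Sohlh1, Sohlh2, Lhx8, Taf4b, Tbpl2, Foxo3, Obox1 and Obox5. They were chosen by name from their known roles, with earlier results of these data known, and their rows were read from the deposited tables, where 9 of the 10 could be analysed among 22801 genes at metaphase II (MII, the mature egg) and 2 of the 10 among 3475 genes at the germinal vesicle stage (GV, before meiotic maturation). RNA came from pools of 15 oocytes of C57BL/6 females aged 35 days. Conditional knockout oocytes (CKO, genotype Lsm14bfl/fl-Gdf9-Cre) carried floxed alleles of Lsm14b, which encodes an RNA-binding protein of cytoplasmic mRNA granules, together with a Cre recombinase driven by the oocyte-expressed Gdf9 promoter. Control oocytes (WT, genotype Lsm14bfl/fl) carried the same floxed alleles and no Cre. There were 3 replicates of each genotype at each stage, 12 libraries in all, and the design text calls the replicates biological. The labels do not say how many females each pool drew on. Sohlh1 was not analysed here. The GV table lists only genes that its authors selected at an unadjusted p-value under 0.05 and over 2-fold, so for the other members a missing GV row means only that they were not selected there.

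These factors build the oocyte's own transcription programme. In growing follicles NOBOX, FIGLA, LHX8 and the SOHLH pair switch on genes for the zona pellucida, for secreted growth factors and for proteins stored for the embryo, and loss of any of them in mice disrupts early follicles. FOXO3 acts earlier as a brake that holds primordial follicles dormant until PI3K signalling sends it out of the nucleus. TBPL2 takes over from the general factor TBP at promoters of growing oocytes, and TAF4B is a gonad-enriched subunit of the TFIID complex. The OBOX homeobox proteins are supplied by the oocyte to the early mouse embryo. A fully grown oocyte has largely stopped transcription, and its mRNA is then stored, translated or degraded.

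Lsm14b, the deleted gene, followed the labels. It stood at 6.26% of the WT mean in CKO oocytes at GV and at 8.22% at MII, with no overlap between genotypes. The reads behind the MII values numbered 23077585 to 40530314 in CKO libraries and 88494525 to 124872889 in WT libraries, so every CKO library was shallower. The library of WT replicate 3 at MII stood apart: its Spearman coefficient against any other MII library was 0.845 to 0.865, and any pair among the remaining 5 gave 0.889 to 0.925. All 10 oocyte markers, among them Zp3, Gdf9 and Bmp15, were present at MII, with summed normalized counts of 597941 to 705432 in CKO and 592367 to 659366 in WT. In 2 of these 10 every CKO library was above every WT library, and in 1 every CKO library was below. Over all tested genes these shares were 10.4% and 12.0%. The markers of cumulus and granulosa cells summed to 3193 to 4333 in CKO and 2626 to 5212 in WT, with 9 of 12 in the table and Amh, Hsd17b1 and Has2 at 0 in every CKO library. Among them Fshr, Inhba and Nr5a2 were higher in every CKO library than in any WT library, with Fshr at 90.9 to 157 in CKO and 0 to 34.2 in WT, and none was lower without overlap. Most of the CKO sum was Nr5a2, at 2298 to 2865 in CKO and 1572 to 1834 in WT. Nr5a2 is also in the list of other oocyte factors below. The 6 of 9 listed markers of theca, stroma and endothelium summed to 3948 to 4655 in CKO and 3760 to 4715 in WT. Most of this sum was Pecam1, at 3771 to 4198 in CKO and 2841 to 4060 in WT. Kdr was lower without overlap, at 0 to 64.7 in CKO and 114 to 178 in WT. So was Tie1, at 158 to 297 in CKO and 446 to 703 in WT, and no marker of this list was higher without overlap. Those of blood and immune cells, 3 of 6 in the table, summed to 194 to 215 in CKO and 1118 to 1925 in WT. The difference in this sum came from C1qb alone, at 113 to 195 in CKO and 1049 to 1904 in WT. Cd68 overlapped between genotypes. Ptprc was at 0 in every CKO library and at no more than 3.59 in WT, also with overlap. At GV only genes selected for a difference between these genotypes are listed, so any marker listed had to differ. Of the 9 theca, stroma and endothelium markers 4 were listed, at sums of 127 to 372 in CKO and 963 to 2032 in WT, with Col1a2 and Kdr at 0 in every CKO library. Most of these GV sums was Tie1, at 127 to 372 in CKO and 704 to 1602 in WT. The 2 listed blood and immune markers summed there to 1026 to 1129 in CKO and 1826 to 2162 in WT, of which Cd68 was higher, at 180 to 347 in CKO and 79.5 to 104 in WT, and C1qb lower. The part of these differences in the results was not tested.

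The promoters of the 2 members whose genotypes did not overlap at either stage and of the near-identical pair Obox1 and Obox5 are shown as RefSeq gives them on GRCm38.p6, from 250 bases before to 50 bases after the start site, 5′ to 3′ on the gene's strand. Capitals mark E-boxes, CANNTG, the site type bound by the basic helix-loop-helix factors FIGLA, SOHLH1 and SOHLH2 with their partners. The windows lie at chr6:43309505-43309804 on the minus strand for Nobox, and on the plus strand at chr3:55181794-55182093 for Sohlh2, chr7:15547007-15547306 for Obox1 and chr7:15750120-15750419 for Obox5.
Nobox: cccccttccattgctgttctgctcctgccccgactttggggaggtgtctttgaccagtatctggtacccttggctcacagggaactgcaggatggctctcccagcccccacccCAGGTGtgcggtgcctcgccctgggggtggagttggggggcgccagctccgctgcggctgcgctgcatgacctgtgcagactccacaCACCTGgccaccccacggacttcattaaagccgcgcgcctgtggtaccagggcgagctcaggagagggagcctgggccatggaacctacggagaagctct
Sohlh2: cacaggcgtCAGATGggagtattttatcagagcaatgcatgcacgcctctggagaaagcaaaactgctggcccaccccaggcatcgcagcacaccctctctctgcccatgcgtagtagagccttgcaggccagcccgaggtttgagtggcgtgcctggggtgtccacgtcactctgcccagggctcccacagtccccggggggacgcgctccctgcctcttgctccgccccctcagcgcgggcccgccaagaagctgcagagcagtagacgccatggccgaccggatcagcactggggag
Obox1: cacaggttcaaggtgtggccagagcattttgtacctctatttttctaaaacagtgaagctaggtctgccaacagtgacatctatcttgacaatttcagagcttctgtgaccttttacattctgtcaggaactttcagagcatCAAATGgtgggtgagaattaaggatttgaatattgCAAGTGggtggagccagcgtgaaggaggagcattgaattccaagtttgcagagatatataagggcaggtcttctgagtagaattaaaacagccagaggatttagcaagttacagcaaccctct
Obox5: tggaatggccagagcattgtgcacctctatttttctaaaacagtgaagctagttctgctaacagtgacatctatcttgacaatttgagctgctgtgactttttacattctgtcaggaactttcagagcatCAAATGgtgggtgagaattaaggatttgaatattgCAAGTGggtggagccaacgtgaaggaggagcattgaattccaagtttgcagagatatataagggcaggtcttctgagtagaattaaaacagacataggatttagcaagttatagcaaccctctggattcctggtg
The Nobox window held 2 E-boxes, starting 137 and 50 bases before the start site, and the Sohlh2 window held 1, starting 241 bases before it. RefSeq windows were at hand for 9 of the 10 members, and 7 of these held an E-box on either strand, as did 72.3% of all 32851 promoter windows. The homeodomain cores TAATTA and TAATTG were found in none of the 9 windows, against 5.29% and 8.0% of all windows. The same held for the exact TATA box spelling TATAAA, present in 13.6% of all windows, and for the forkhead site GTAAACA, present in 3.65%, both searched on either strand. Other spellings of the TATA box were not searched, and the Obox1 and Obox5 windows both hold TATATAAG shortly before the start site. Within the windows Obox1 and Obox5 were identical at 275 of 288 aligned bases (95.5%), and both E-boxes of the one recurred in the other.

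Nobox, the oocyte homeobox gene, was higher in CKO oocytes at both stages. At GV it stood at 254364, 253106 and 194103 normalized counts in CKO, against 79154, 76602 and 78782 in WT. Every CKO oocyte pool lay far above every WT pool, and the WT pools differed little among themselves. The CKO mean was 233858 ± 34434 and the WT mean 78180 ± 1379 (SD, n = 3 each), a 2.99-fold ratio. For Nobox at GV the authors' deposited table gave a log2 fold change of 1.58 (SE 0.14, adjusted p = 2.8e-28). At MII Nobox stood at 144697, 139534 and 121815 normalized counts in CKO, against 47847, 39370 and 19384 in WT, where the lowest value was that of the library that stood apart. The genotypes again did not overlap. The CKO mean was 135349 ± 12001 and the WT mean 35534 ± 14615 (SD, n = 3 each), a 3.81-fold ratio. By limma, fitted over 20388 genes with Benjamini-Hochberg adjustment, the log2 difference was 2.02 (SE 0.38, 95% interval 1.19 to 2.86, adjusted p = 0.0336). It was 1.64 without WT replicate 3 (adjusted p = 0.0363). Leaving out any other single library kept it between 1.97 and 2.29 with adjusted p of 0.133 to 0.247, in fits where limma called 0 genes in all, against 2441 to 3007 genes at an unadjusted p under 0.05. The 2 stages are separate libraries scaled in separate tables, so levels are not compared between them. In pooled oocytes, fewer contributing cells and less RNA per cell cannot be told apart.

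**Figure D1:**
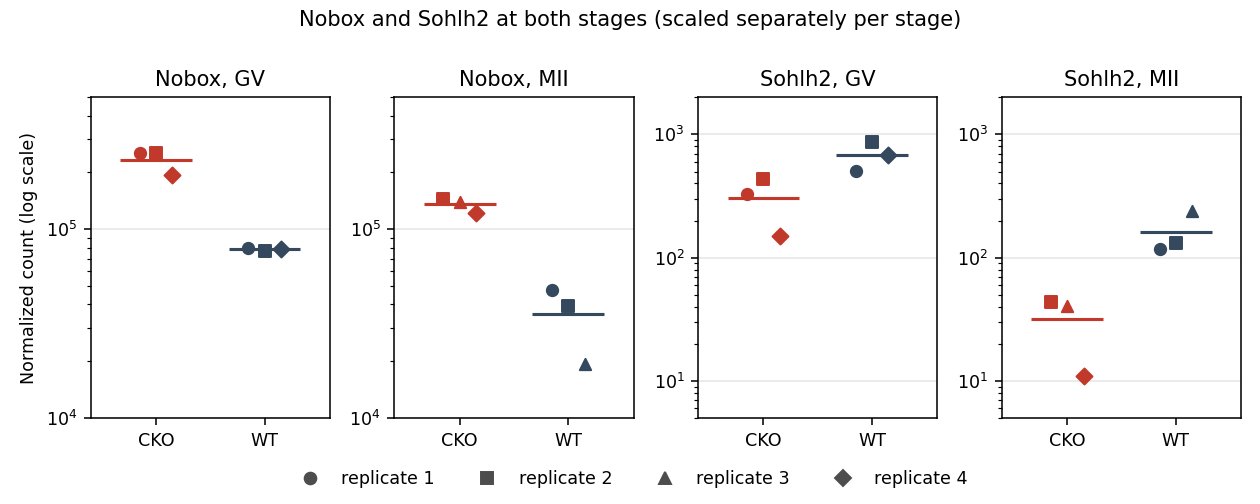
Normalized counts (log scale) of Nobox and Sohlh2 in each library at GV and MII, with CKO in red left of WT in dark blue, marker shapes for replicate numbers and a line at each group's mean. At each stage the 3 CKO libraries lie above the 3 WT libraries for Nobox and below them for Sohlh2.

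Nobox also stood higher relative to the members Foxo3 and Lhx8, in ratios that need no scaling between libraries. Ratios of Nobox to the remaining members were not taken. Within each library, the ratio of Nobox to Foxo3 normalized counts was 2.22, 2.03 and 1.72 in CKO, against 0.609, 0.459 and 0.21 in WT at MII. Foxo3 itself was lower in every CKO library than in any WT library (ratio of means 0.797), which widens this contrast. The ratio of Nobox to Lhx8, another homeobox gene of early follicles, was 7.15, 9.5 and 10.7 in CKO, against 2.76, 2.07 and 2.22 in WT. Both ratios were higher in every CKO library than in any WT library, and the ratio to Lhx8 in WT replicate 3 was like those of the other WT libraries. Of its direct reads, Nobox had 55111 to 105097 in the CKO libraries and 37802 to 81185 in the deeper WT libraries, so counting error was small beside the spread between replicates. No 50-base window of the longest GENCODE M21 transcript of Nobox recurred in any other member or Obox gene.

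**Figure D2:**
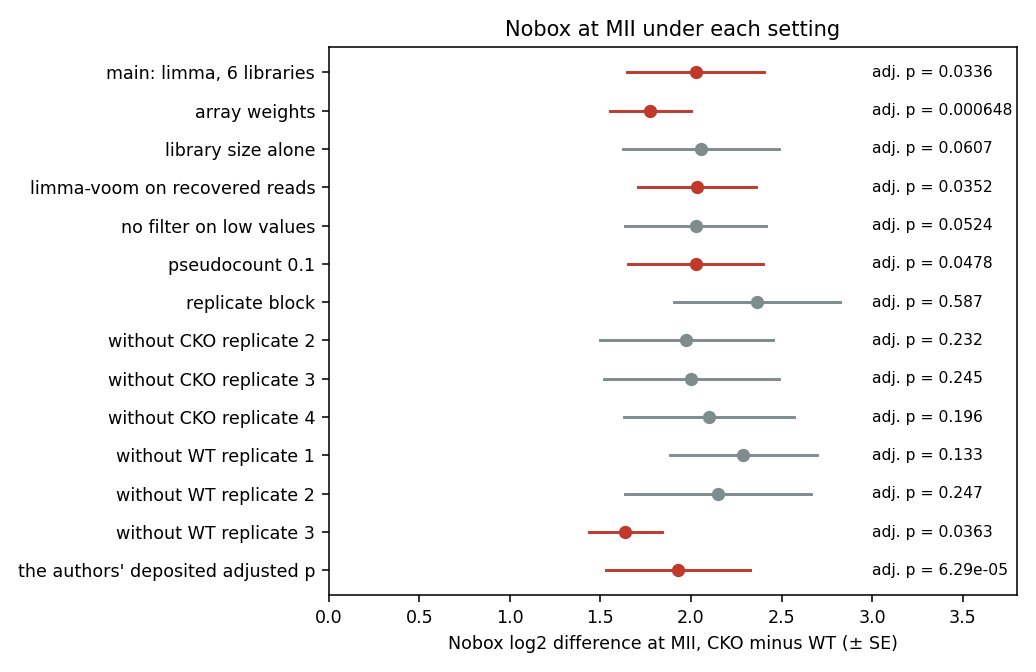
Nobox log2 difference at MII (CKO minus WT, bars ± SE) under each setting, with the adjusted p beside it; red marks an adjusted p under 0.05. The difference stays between 1.64 and 2.36, while the adjusted p ranges on both sides of the threshold.

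Sohlh2, a basic helix-loop-helix factor of germ cells before and during early follicle growth, was lower in CKO oocytes, at far smaller counts. At GV it stood at 327, 438 and 151 normalized counts in CKO, against 506, 862 and 684 in WT. The genotypes did not overlap, and CKO replicate 4 was the lowest. The means were 305 ± 145 in CKO and 684 ± 178 in WT (SD, n = 3 each). For Sohlh2 at GV the authors' deposited table gave a log2 fold change of -1.16 (SE 0.46, adjusted p = 0.0419). On the log2(normalized count + 1) scale the difference of group means was -1.26 with all libraries and -0.82 without CKO replicate 4. At MII Sohlh2 stood at 44.1, 40.5 and 11.0 normalized counts in CKO, against 117, 132 and 239 in WT. These values came from 32, 16 and 8 reads in the CKO libraries and 198, 221 and 467 reads in the WT libraries. Again no CKO library reached the lowest WT library. The means were 31.9 ± 18.1 in CKO and 163 ± 66.9 in WT (SD, n = 3 each), but limma gave a log2 difference of -2.46 (SE 0.91, 95% interval -4.50 to -0.42) with an adjusted p of 0.223, which did not pass the threshold. In the authors' deposited table the same gene had a log2 fold change of -2.36 (SE 0.78, adjusted p = 0.0259).

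Figla, the helix-loop-helix activator of the zona pellucida genes, showed no difference past the test at MII. Its normalized counts were 260, 238 and 81.3 in CKO, against 137, 137 and 208 in WT, with overlap between genotypes. CKO replicate 4 was the lowest of all 6 libraries, as it was for Sohlh2. The limma log2 difference was 0.12 with a 95% interval of -1.39 to 1.63, so a change of more than 2-fold either way could not be told apart from none at this spread.

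Lhx8, a LIM-homeodomain factor needed for the passage from primordial to growing follicles in mice, had normalized counts of 20225, 14682 and 11366 in CKO, against 17341, 19000 and 8729 in WT at MII. The libraries of the genotypes were interleaved. The limma log2 difference was 0.08 (95% interval -0.75 to 0.90, adjusted p = 0.926), and it was -0.28 without WT replicate 3, the lowest library. Foxo3, the forkhead brake on follicle activation, stood at 65070, 68642 and 70844 normalized counts in CKO, against 78623, 85813 and 92172 in WT. All CKO libraries were below all WT libraries, by a ratio of means of 0.797, and the spread within groups was the narrowest among the members relative to the mean. The limma log2 difference of -0.32 (95% interval -0.95 to 0.30) had an adjusted p of 0.624 and did not pass the threshold.

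The 2 members of the basal transcription machinery also gave no call at MII. Tbpl2, which encodes the TBP paralogue of growing oocytes, had normalized counts of 770, 375 and 456 in CKO, against 455, 214 and 402 in WT, with overlap. Its limma log2 difference was 0.58 (95% interval -0.54 to 1.70, adjusted p = 0.624). Taf4b, the TFIID subunit, had 775, 777 and 1212 normalized counts in CKO, against 500, 1094 and 2279 in WT, a WT range wide enough to hold every CKO value. Its limma log2 difference was -0.26 (95% interval -1.45 to 0.94, adjusted p = 0.811), and it was 0.28 without WT replicate 3, its highest library.

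Obox1 and Obox5, homeobox genes from a cluster of copies on chromosome 7, moved together from library to library. Obox1 had 12647, 8094 and 14807 normalized counts in CKO, against 13363, 14155 and 28490 in WT. Obox5 had 13691, 9067 and 16985 in CKO, against 12315, 12176 and 27517 in WT. For both genes CKO replicate 3 was the lowest and WT replicate 3 the highest of the 6 libraries, and the genotypes overlapped. The limma log2 differences were -0.61 for Obox1 (95% interval -1.44 to 0.22, adjusted p = 0.452) and -0.32 for Obox5 (95% interval -1.19 to 0.55, adjusted p = 0.655). Without WT replicate 3 they were -0.26 and 0.07. These values are uncertain, because the longest GENCODE M21 transcripts of the pair were identical at 1162 of 1277 aligned bases (91.0%). Of the 50-base windows of the Obox1 transcript, 59.3% also occurred in another Obox gene or pseudogene, and 13.0% of those of Obox5 did. Within each library the ratio of Obox5 to Obox1 counts was 1.08, 1.12 and 1.15 in CKO, against 0.922, 0.86 and 0.966 in WT, so the balance between the copies was higher in every CKO library by a small amount.

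**Figure D3:**
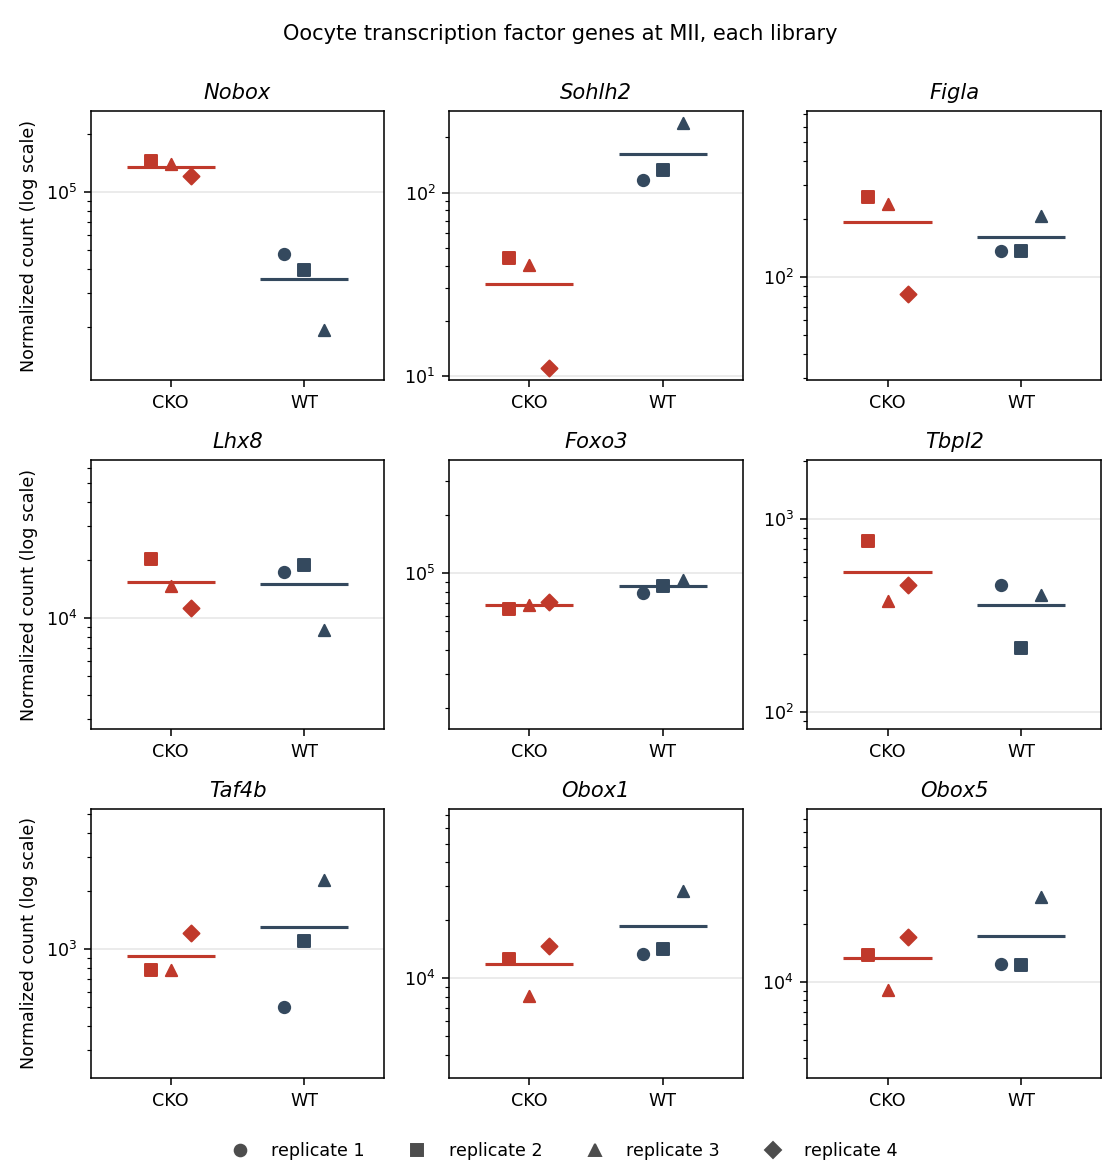
Normalized counts (log scale) of the 9 members at MII in each library, with CKO in red left of WT in dark blue, marker shapes for replicate numbers and a line at each group's mean. Nobox, Sohlh2 and Foxo3 are the panels in which the genotypes do not overlap, and WT replicate 3 (triangle) is the extreme WT library in most panels.

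Counted together at GV, 1 member was called higher and 1 lower in the authors' deposited table, by an adjusted p under 0.05 together with over 2-fold. Over all genes, 12.9% of the 21462 tested genes that the table's adjusted p-values imply were called, 4.96% higher and 7.89% lower. At MII limma called 1 of the 9 members tested, which was Nobox, and 8 did not pass the threshold, where 1.51% of all tested genes were called, 0.52% higher and 0.991% lower. In the authors' deposited table for MII there was 1 member called higher and 1 called lower, where 11.5% of the genes with an adjusted p were called. The genotypes did not overlap for 1 member that was higher and 2 that were lower, against 22.4% of all tested genes. The median limma log2 difference was -0.26 over the 9 members and -0.11 over all genes tested.

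**Figure D4:**
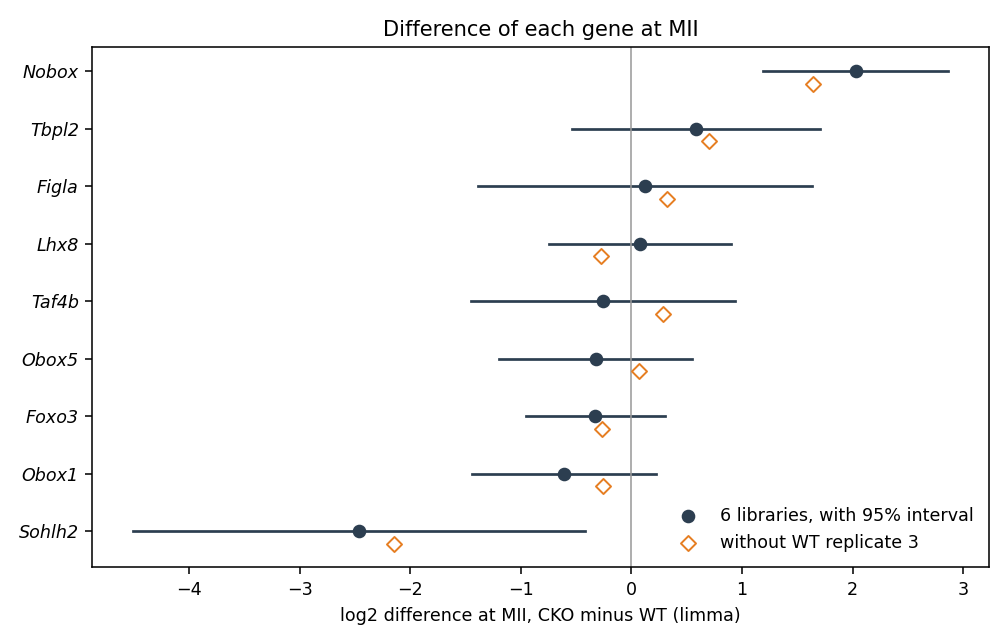
Limma log2 difference at MII (CKO minus WT) of each member with its 95% interval over 6 libraries (filled circles), and the value without WT replicate 3 (open diamonds). The intervals of Nobox and Sohlh2 exclude 0 before adjustment over all genes, and the values of Lhx8, Taf4b and Obox5 lie on the other side of 0 without WT replicate 3.

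Nobox had the highest mean level of the members in both genotypes at MII. Levels were taken as normalized counts per kilobase of the exons joined from GENCODE M21, and the authors' annotation is not given in the sources used here. In CKO eggs Nobox led with 67271 ± 5965, followed by Foxo3 with 9006 ± 385, Obox1 with 6237 ± 1804, Obox5 with 6202 ± 1862 and Lhx8 with 6092 ± 1768 (SD, n = 3 each). In WT eggs the same 5 genes led with 17661 ± 7264 for Nobox, 11298 ± 895 for Foxo3, 9826 ± 4481 for Obox1, 8116 ± 4128 for Obox5 and 5933 ± 2178 for Lhx8. In WT eggs these neighbours did not differ beyond their spread, while in CKO eggs Nobox stood clear of Foxo3, and Obox1, Obox5 and Lhx8 lay within each other's spread. Tbpl2, Taf4b and Figla formed a lower group, at 387 ± 151, 179 ± 48.9 and 231 ± 117 in CKO and 259 ± 92.0, 251 ± 176 and 192 ± 49.2 in WT. Within this group the WT levels lay within each other's spread, while in CKO Tbpl2 stood above Taf4b by more than their spread and Figla lay within the spread of both. Sohlh2 was last, at 13.5 ± 7.67 in CKO and 68.9 ± 28.3 in WT. Among 19849 genes with a length, Nobox ranked between 10 and 14 in the CKO libraries and between 56 and 182 in the WT libraries.

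Genes connected with these factors were described from lists chosen by known function. In the list of 30 reported or candidate targets of NOBOX, FIGLA, LHX8 and the SOHLH factors, limma called 1 higher and 29 not past the threshold at MII, with a median log2 difference of 0.33. The gene called was Kdm1b, the histone demethylase that prepares imprints in growing oocytes, at 28999 ± 1745 normalized counts in CKO and 10595 ± 675 in WT (SD, n = 3 each), with a limma log2 difference of 1.45 (SE 0.25, adjusted p = 0.0277). Nlrp14, an oocyte gene of the NLRP family, was at 175528 ± 24823 in CKO and 68790 ± 9696 in WT at MII, without overlap (SD, n = 3 each; adjusted p = 0.0662). The GV table called both higher, and it called Fgf8, a growth factor secreted by the oocyte, lower, at 2200 ± 763 in CKO and 7003 ± 1848 in WT (SD, n = 3 each; log2 fold change -1.67 in the authors' deposited table). The growth factor and zona genes Gdf9, Bmp15, Zp1, Zp2 and Zp3 were not called by limma at MII and were not selected at GV. Their limma log2 differences at MII went both ways. They were -0.272 for Gdf9 (adjusted p = 0.739) and -1.091 for Bmp15 (adjusted p = 0.135). For the zona genes they were 0.742 for Zp1 (adjusted p = 0.568), 1.155 for Zp2 (adjusted p = 0.205) and 1.253 for Zp3 (adjusted p = 0.0682). At an unadjusted p under 0.05, 12 of the 30 listed targets passed at MII, against 16.0% of all tested genes (3259 of 20388). In the authors' deposited table for MII there were 4 called higher and 4 called lower, against 11.5% of the 16042 genes with an adjusted p. At GV the authors called 4.96% of all tested genes higher and 7.89% lower. These shares also serve the counts of the lists that follow.

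In the list of the TBP family and the general initiation factors TFIIA, TFIIB, TFIID, TFIIE and TFIIF, 25 genes were tested at MII, of which 1 fell, none rose and 24 were not past the threshold, with a median log2 difference of -0.46. At an unadjusted p under 0.05 there were 10 of the 25, and in the authors' deposited table for MII there were 6 called lower and none higher. In 9 of the 25 every CKO library was below every WT library, and in 1 every CKO library was above, against 12.0% and 10.4% of all tested genes. These counts were 5 and 8 of the 30 targets. In the lists below they were 4 and 2 of 13 E protein, ID protein and LIM cofactor genes and 4 and 5 of 27 FOXO and PI3K genes. They were 1 and 2 of 8 other Obox genes and 6 and 5 of 31 other oocyte factors. Gtf2f1, a subunit of the initiation factor TFIIF, was at 3267 ± 281 normalized counts in CKO and 12574 ± 846 in WT (SD, n = 3 each), with a limma log2 difference of -1.95 (SE 0.26, adjusted p = 0.0122). The authors' deposited GV table called 3 genes of this list lower and none higher, against 7.89% and 4.96% of all genes tested at GV. Tbp, the general TATA-binding protein, was at 4907 ± 226 in CKO and 11281 ± 501 in WT at GV, and Gtf2f1 at 6193 ± 450 in CKO and 16163 ± 2261 in WT (SD, n = 3 each). Tbpl1, another TBP relative, was at 214 ± 122 in CKO and 564 ± 65.8 in WT at GV (SD, n = 3 each). At MII Tbp overlapped between genotypes, at 1942 to 2220 in CKO and 1888 to 8124 in WT, with an adjusted p of 0.295 over 6 libraries and 0.0346 without WT replicate 3.

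None of the 13 tested E protein, ID protein and LIM cofactor genes was called by limma at MII, against 5 at an unadjusted p under 0.05 and 1 higher and 1 lower in the authors' deposited table. Their median log2 difference was -0.82. Tcf4, an E protein, was called higher at GV, at 482 ± 28.7 in CKO and 141 ± 91.2 in WT, and Ldb1, the cofactor of LIM-homeodomain proteins, was at 2172 ± 465 in CKO and 6304 ± 2163 in WT at MII (SD, n = 3 each; limma adjusted p = 0.0619). Id3, an inhibitor of helix-loop-helix factors, was at 12.4 ± 16.9 in CKO and 99.9 ± 75.8 in WT at MII (SD, n = 3 each; limma adjusted p = 0.255). None of the 27 genes of the FOXO and PI3K list was called by limma at MII, against 7 at an unadjusted p under 0.05 and 2 higher and 1 lower in the authors' deposited table. The median was 0.18. Tsc1, an inhibitor of mTOR signalling, was at 53901 ± 12478 in CKO and 18361 ± 6379 in WT (SD, n = 3 each; limma adjusted p = 0.0572), and Rptor, an mTOR complex subunit, at 1025 ± 204 in CKO and 2404 ± 37.9 in WT (SD, n = 3 each; adjusted p = 0.0822). Rptor was called lower at GV. Foxo4, a relative of Foxo3, was at 0 in every WT library at MII and at 43.4 ± 25.7 in CKO (SD, n = 3; limma adjusted p = 0.0804), and at GV it was listed but not called. Among 8 other Obox genes and pseudogenes tested limma called none, against 2 at an unadjusted p under 0.05 and 1 higher in the authors' deposited table. Their median log2 difference was 1.97, with values from -0.82 for Obox2 to 3.76 for Obox6 (limma adjusted p = 0.273 and 0.306). The pseudogene Obox4-ps3 had 2.46, which was 0.12 without WT replicate 3. Obox2 was at 16344 ± 4582 in CKO and 28967 ± 9232 in WT (SD, n = 3 each). Obox3-ps1 and Obox4-ps3 were called higher at GV. Among 31 other oocyte factors tested limma called none at MII, against 5 at an unadjusted p under 0.05 and 2 higher and 1 lower in the authors' deposited table, with a median of 0.14. Of these, the GV table called Trim28, a corepressor, higher, at 18950 ± 1081 in CKO and 7737 ± 224 in WT, and the POU gene Pou6f1 lower, at 6.64 ± 7.82 in CKO and 74.2 ± 23.5 in WT (SD, n = 3 each). Klf5 was listed at GV but not called (adjusted p = 0.135 in the authors' deposited table).

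**Figure D5:**
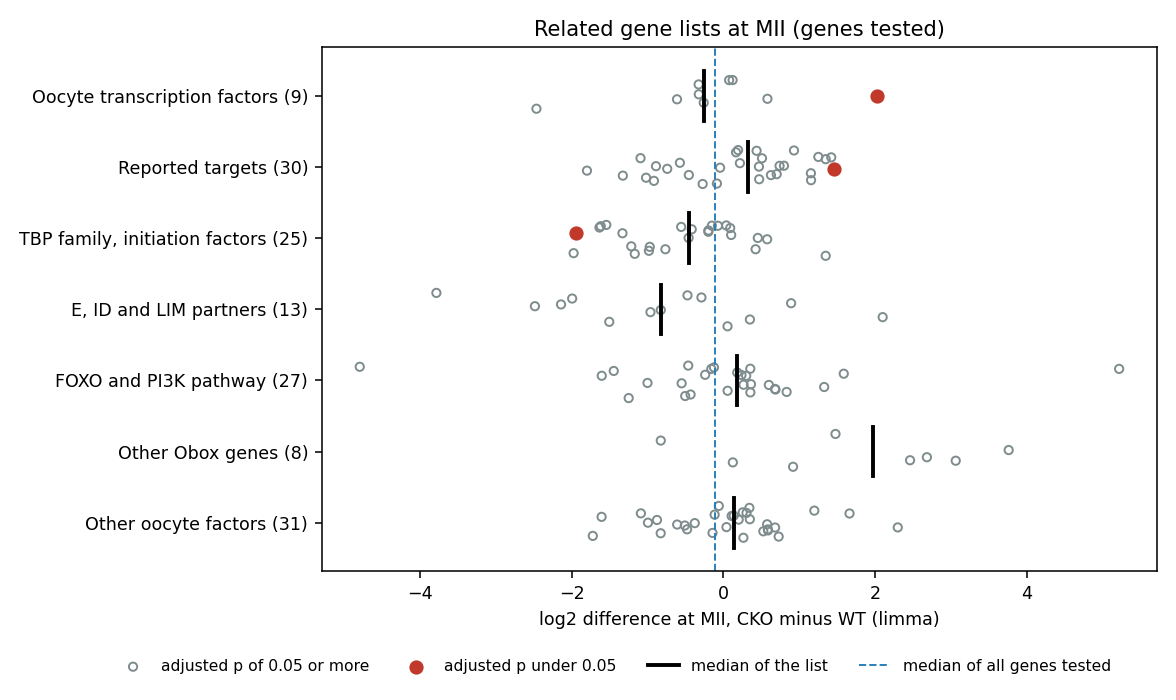
Limma log2 differences at MII (CKO minus WT) of every tested gene in the member list and the 6 related lists, with the number tested in parentheses, red for an adjusted p under 0.05, a black bar at each list's median and a dashed line at the median of all genes tested. Single genes were called in 3 of the 7 lists, with Nobox and Kdm1b on the higher side and Gtf2f1 on the lower side.

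The genes whose levels followed Nobox most closely over the 6 MII libraries were Uspl1, Ssh2, Polr2a, Samd7 and Iqgap1. Their Pearson correlations with Nobox on the log2(normalized count + 1) scale were 0.996 to 0.998, the highest among 5276 named genes that averaged 1000 or more normalized counts. These libraries share the genotype contrast and the low value of WT replicate 3, and the correlation is a description of that shared pattern. Uspl1, a SUMO protease gene, and Iqgap1, a cytoskeletal scaffold gene, had limma log2 differences of 2.57 (adjusted p = 0.0277) and 2.58 (adjusted p = 0.0286). Ssh2, a phosphatase that activates cofilin, had 1.81 (adjusted p = 0.0475), and Polr2a, the largest subunit of RNA polymerase II, had 1.36 (adjusted p = 0.0612). Samd7 had 1.19 (adjusted p = 0.0863). Because these genes were picked for following Nobox over the same libraries, their differences between genotypes follow from that choice. Their adjusted p-values are no separate evidence.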

How the data were processed

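RNA of pooled oocytes was sequenced in 12 libraries, and the labels' protocols name standard Illumina libraries. Not given in the sources used here are the aligner, genome build, annotation and strand setting, so overlapping, antisense and near-identical genes are uncertain. The authors deposited log10(normalized count + 1) for each gene and library, with 1 table per stage scaled within its 6 libraries. Further columns, per the file headers, were the mean signal over libraries, a score, the log2 fold change and its SE, and p-values before and after adjustment. Values taken off the log10 scale averaged to the authors' deposited mean signal to a relative difference of 1.4e-14. All values were whole multiples of 1 unit per library (100.0% within 0.05 reads), which gave the reads and depths.

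The MII test was limma (version 3.58.1, R 4.3.3, mean-variance trend on) with genotype as its term and log2(normalized count + 1) as input, over 20388 genes with a mean normalized count of at least 1, with Benjamini-Hochberg adjustment over all of them and a threshold of 0.05. Differences on this scale understate the change of low genes. The procedure was first tested on simulated data. At GV no model was fitted, since the table holds selected genes. Sequence identity used Biopython 1.88.

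The members, gene lists and tests were chosen with earlier results of these data known. Of each related list, every gene called by limma or listed at GV was named, and otherwise those with the smallest p up to 3. Alternatives were another pseudocount of 0.1, no filter, library size alone, a replicate block, limma-voom on recovered reads, array weights, the authors' adjusted p and leaving out each library.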

Additional observations from a re-analysis of the deposited data

How the results depend on the processing

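Nobox stayed higher at MII in every alternative run. Its log2 difference was 2.06 with library size alone (adjusted p = 0.0607), 2.02 without the filter on low values (adjusted p = 0.0524) and 2.36 with a replicate block (adjusted p = 0.587), and it ranged from 1.64 to 2.29 with 1 library left out, where the call held only without WT replicate 3. The number of members called was 0 with library size alone, without the filter and with the replicate block, 2 by the authors' deposited adjusted p, and 0 to 1 with a library left out. It was 1, which was Nobox, with array weights, limma-voom and the pseudocount of 0.1 (Nobox limma adjusted p = 0.000648, 0.0352 and 0.0478). Over all genes, the 308 calls became 3190 with array weights, 171 with limma-voom, 1851 by the authors' deposited adjusted p, 0 with the replicate block (1496 at an unadjusted p under 0.05) and 0 to 890 with a library left out. The related lists together had 2 calls, against 36 with array weights, 0 with the replicate block, 23 by the authors' deposited adjusted p and 0 to 6 with a library left out. The block left few degrees of freedom, because the genotypes share only replicate numbers 2 and 3 at MII, and the labels do not say that a number pairs libraries. Deviations from the group means correlated at 0.017 and -0.114 in the same-numbered libraries at MII and at -0.012, 0.016 and 0.001 at GV. Differences that did not pass the test changed sign with array weights for Lhx8 (-0.24) and Obox5 (0.007), and with a library left out they ranged from -0.18 to 0.66 for Figla, -0.28 to 0.29 for Lhx8, -0.81 to 0.28 for Taf4b and -0.53 to 0.067 for Obox5. Sohlh2, Foxo3, Obox1 and Tbpl2 kept their sign in all alternatives, and Sohlh2 passed the threshold only by the authors' deposited adjusted p. The causes were not tested. The Sohlh2 values at MII rest on 8 to 32 reads in the CKO libraries.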

Other observations

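Pseudogenes of the Obox cluster were also listed, a set chosen after their values were seen. The GV table held 5 of them, and the 2 it called, Obox3-ps1 and Obox4-ps3, were higher in CKO. Both are also in the list of other Obox genes above. Obox3-ps1 had 1024, 371 and 930 normalized counts in CKO, against 128, 160 and 342 in WT. Obox4-ps3 had 169, 85.2 and 135 normalized counts in CKO, against 44.5, 17.7 and 26.1 in WT. Neither gene overlapped between genotypes at GV, where only genes selected for a difference are listed. At MII none of 27 tested Obox pseudogenes was called by limma, and 0 had an unadjusted p under 0.05, with a median log2 difference of 0.98. Their sequences resemble each other and those of the coding copies, and their counts are uncertain.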
